A study of Mus musculus with 4 samples.

Results

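The genes described here are those whose transcript was highest at day 7 while dendritic cells, which take up antigen and show it to T cells, were grown from bone marrow progenitors in culture. Expression was measured on 4 mouse arrays: progenitors amplified in vitro, cells after 7 days of differentiation, cells after 10 days, and cells after 10 days of which the labels say that they also received TNFalpha for 16 hours. There was 1 array per group, all from cultured mouse bone marrow cells. Mouse strain, sex, age, culture cytokines and how many cultures each array stands for are not stated in the labels.

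A gene was chosen by its own measured values, when its deposited intensity, raised to a floor of 400 units, was at day 7 at least 2 times the progenitor value and at least 2 times the day 10 value. That gave 27 of 8220 genes, or 0.581% of the 4651 genes that exceeded 400 units somewhere on those 3 arrays. The progenitor, day 7 and day 10 values therefore chose the members and are given as a description with no test, and with 1 array per group no p-value exists for any comparison. The array with TNF was not used by the rule, except that each gene is read by whichever of its probe sets had the highest 4-array mean. Taken alone, 10.7% of 4440 genes were at least 2 times higher at day 7 than in progenitors, and 6.26% of 4408 were at least 2 times higher at day 7 than at day 10. The mirror pattern, a trough at day 7 at least 2-fold under both other arrays, was met by 20 genes (0.43%). In contrast, 211 genes (4.54%) were highest at day 10 and 380 (8.17%) in progenitors by the same rule.

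By background, differentiating dendritic cells switch off the genes of progenitors and build up antigen presentation, and on contact with TNF or microbial products they mature. Cytokine and chemokine messages such as those of Tnf, Ccl3 and Ccl4 are short-lived and are typically made in bursts by activated myeloid cells. Other genes in the set work inside the cell, in transport, metabolism, the cytoskeleton and transcription.

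Most defining markers of the labelled cells were present, with exceptions. Of 13 dendritic cell markers, 4, 12, 12 and 12 lay above 400 units on the progenitor, day 7, day 10 and TNF arrays. Of 9 progenitor markers, 8, 8, 4 and 3 did so. The class II gene H2-Aa was at -510 units in progenitors, 21507 at day 7, 95345 at day 10 and 79255 with TNF. The dendritic cell integrin gene Itgax was at 109, 6434, 20071 and 28304 units in the same order. The granule enzyme gene Mpo had 27648 units in progenitors and 5595 at day 7, and lay under 400 units on both day 10 arrays. Against the labels, the dendritic cell factor gene Zbtb46 lay under 400 units on all 4 arrays, and the progenitor marker Cd34 was at 265 units in progenitors. The receptor gene Kit, another progenitor marker, was at 671, 1360, 1297 and 1581 units, and Flt3, found on both lists, at 2045, 836, 492 and 598. Of 15 macrophage markers, 9, 12, 12 and 11 lay above 400 units on the progenitor, day 7, day 10 and TNF arrays, with summed levels of 16662, 83628, 156444 and 119610 units. The granulocyte markers summed to 136417, 129803, 156629 and 18899 units. Of 9 T and NK cell markers, 0 lay above 400 units at day 7 and at day 10. The part of macrophages or granulocytes in the levels below was not tested, and in a culture fewer cells of a type cannot be told apart from less RNA per cell. The mean of the central 96% of values was nearly equal on the arrays, at 998.78 to 999.01 units, but 13 bacterial control probe sets, which do not come from the cells, were a median of 2.5-fold brighter at day 10 than at day 7. Their single ratios of day 7 over day 10 ran from 0.321 to 1.18, and their bearing on the members was not tested.

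The members spanned 813 to 16364 units at day 7, with a median of 1792. Their median was 487 units in progenitors, 735 at day 10 and 679 with TNF. With values raised to the floor, the median fold of day 7 over progenitor was 3.05 and the highest 12.3, whereas the fold over day 10 had a median of 2.38 and a highest value of 4.29. In 17 members the fold over progenitor was the larger of the pair, and in 3 (Hgsnat, Sh3bp2 and Atg4b) the fold over day 10. Day 10 was not a full return for all of them: 6 members, Ccl3, Atf5, Ltb, Gdap10, Ccl4 and Arg2, were at day 10 still at least 2 times their progenitor value, out of 20 members above the floor on either array (30%, against 15.4% of 4540 genes). For 7 members, Ifna9, Wdr82, Gp9, Pam16, Bgn, Tnf and Ggnbp2, the progenitor and day 10 values both lay under 400 units, so their folds are lower bounds on both sides. With values raised to 400 units, only Atg4b and Ifna9 were at least 3-fold higher at day 7 than on both other arrays. At a floor of 200 units Tnf, Ggnbp2, Bgn and Wdr82 were also past 3-fold on both sides, with smaller log2 ratios of 2.07, 2.02, 1.67 and 1.6.

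**Figure D1:**
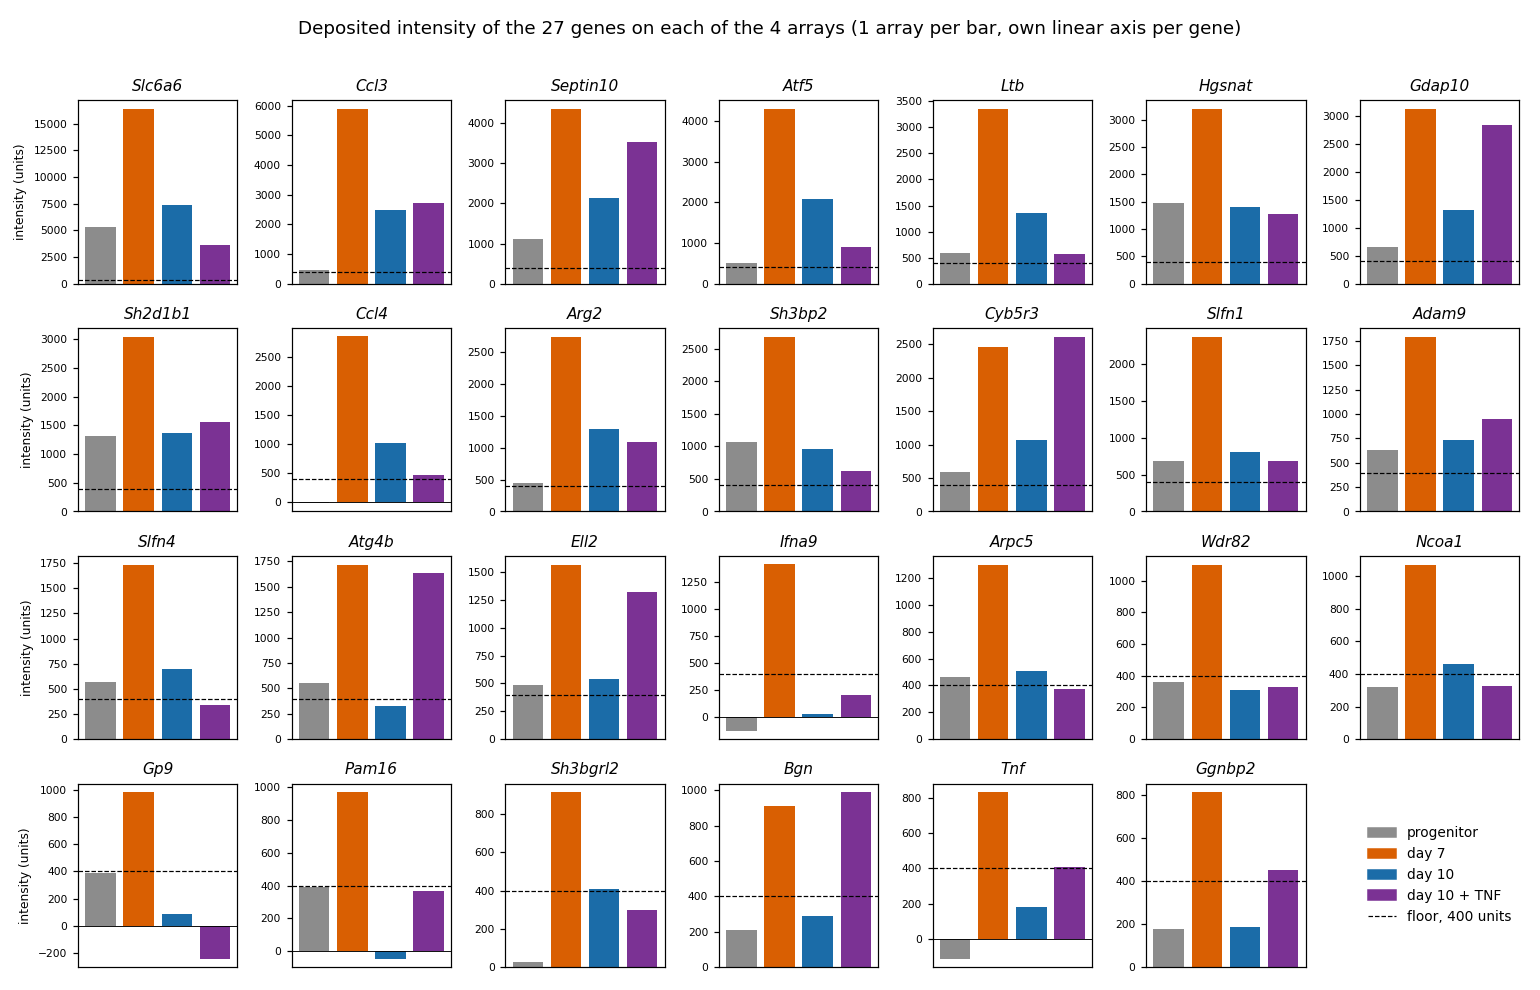
Deposited intensity (units, linear axis starting at or below 0, a separate scale for each gene) of the 27 members on the progenitor, day 7, day 10 and day 10 with TNF arrays, 1 bar per array, with the floor of 400 units dashed. Day 7 is the highest bar in 25 of the 27 panels, while for Cyb5r3 and Bgn the bar with TNF is higher still.

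**Figure D2:**
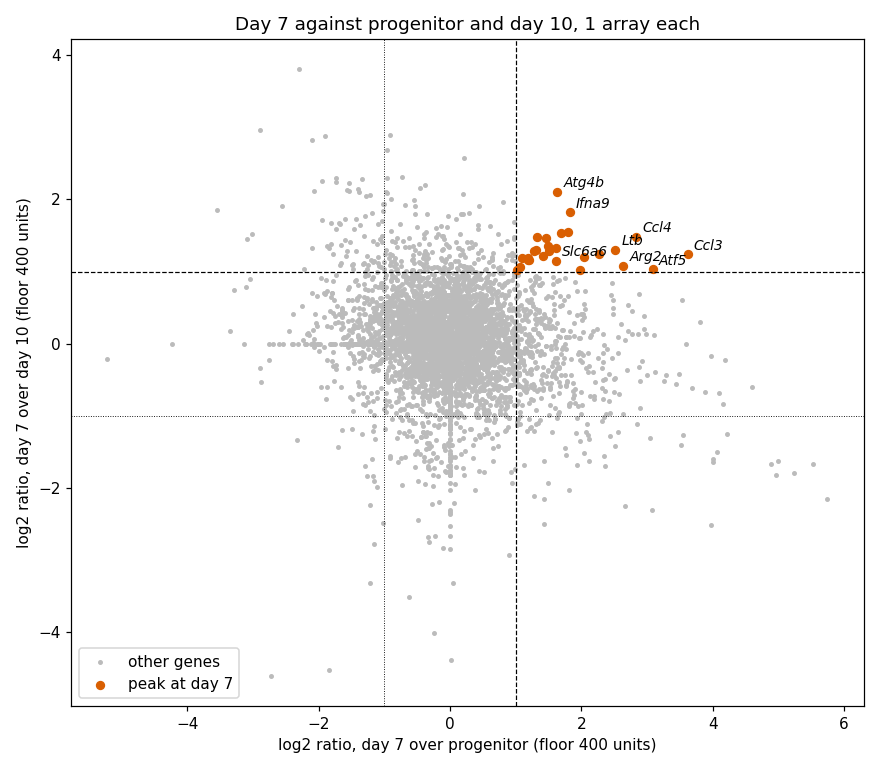
Log2 ratio of day 7 over progenitor (horizontal axis) against log2 ratio of day 7 over day 10 (vertical axis) for the genes exceeding 400 units on any of the 3 arrays, values raised to 400 units; dashed lines mark 2-fold higher and dotted lines 2-fold lower at day 7. The 27 members fill the upper right corner, spread along the horizontal axis up to a log2 ratio of 3.62 (Ccl3) and along the vertical axis up to 2.1 (Atg4b).

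Secreted and membrane signals made up the best known group. Ccl3 and Ccl4 encode chemokines that draw in monocytes and T cells, and Ccl3 binds the receptor Ccr1. Ccl3 was at 479 units in progenitors, 5878 at day 7, 2489 at day 10 and 2722 with TNF. Ccl4 was at -23, 2854, 1022 and 467 units in the same order. Day 7 over progenitor was 12.3-fold for Ccl3, the largest ratio among members whose progenitor level lay above the floor, and at least 7.14-fold for Ccl4, whose bound does not rank it against Ccl3. Day 7 over day 10 was 2.36-fold and 2.79-fold. The pair parted on the array with TNF, where Ccl3 was 1.09-fold and Ccl4 0.457-fold its day 10 level. Transcript of the receptor gene Ccr1 was at 3376, 5218, 3923 and 1975 units, a day 7 value 1.55-fold over progenitor and 1.33-fold over day 10.

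Ltb and Tnf encode cytokines of the TNF family. Ltb, which anchors lymphotoxin at the cell surface, was at 587 units in progenitors, 3348 at day 7, 1361 at day 10 and 564 with TNF. Tnf, a central inflammatory cytokine, was at -114, 837, 182 and 407 units. Ltb was thus 5.71-fold higher at day 7 than in progenitors and 2.46-fold higher than at day 10, while Tnf lay under the floor on both of those arrays and was at least 2.09-fold higher than each. With added TNF the cells' own Tnf transcript stood at 407 units, within a few units of the floor. Lta, whose product pairs with that of Ltb, lay under 400 units on all 4 arrays. The receptor genes did not share the pattern: Tnfrsf1b was at 2211, 11097, 10114 and 8068 units, Tnfrsf1a at 3654, 3250, 3345 and 1291, and Ltbr at 1838, 1912, 1390 and 1260.

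Ifna9 encodes a type I interferon, an antiviral cytokine. It was at -129 units in progenitors, 1412 at day 7, 22 at day 10 and 205 with TNF, which is at least 3.53-fold higher at day 7 than on each other array. It is read by a probe set whose name marks it as shared within a gene family. Of the 8 other type I interferon genes measured, Ifna5 alone lay above 400 units on any array, at 853, 894, 758 and 965 units, and Ifnb1 was at 36, 46, 103 and -9. Ifna5 thus had signal at day 7 without a peak there.

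The members Ccl3 and Ccl4, Ltb and Tnf, and Slfn1 and Slfn4 each lie next to one another in the order of protein-coding genes on the GRCm38.p6 assembly, so that 6 of 26 placed members form 3 adjacent pairs. The share of such pairs among all 8029 placed genes is not given here, so the count only describes the members. Slfn1 and Slfn4 belong to the Schlafen family, named for effects on the growth of mouse thymocytes. Slfn1 was at 684 units in progenitors, 2366 at day 7, 813 at day 10 and 679 with TNF. Slfn4 was at 568, 1734, 693 and 338 units. Both returned close to the progenitor level, with day 7 over progenitor at 3.46-fold and 3.06-fold and day 7 over day 10 at 2.91-fold and 2.50-fold. Of the genes beside the pairs, some turned down after day 7 by less than 2-fold and some did not turn down. Slfn2, next to Slfn1, was at 17759, 18609, 23359 and 26665 units and differed little between days. Ccl6, next to Ccl3, was at 3308, 8895, 39617 and 28230 units, and Ccl5 at -271, 7446, 17817 and 36310, so both were higher again at day 10. Ccl9 was at 5827, 19543, 10436 and 42110 units, a day 7 value 1.87-fold over day 10 that just missed the rule, and its level with TNF was 4.04-fold that of day 10. Lst1, beside Ltb, was at 4596, 13073, 10352 and 5809 units.

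**Figure D3:**
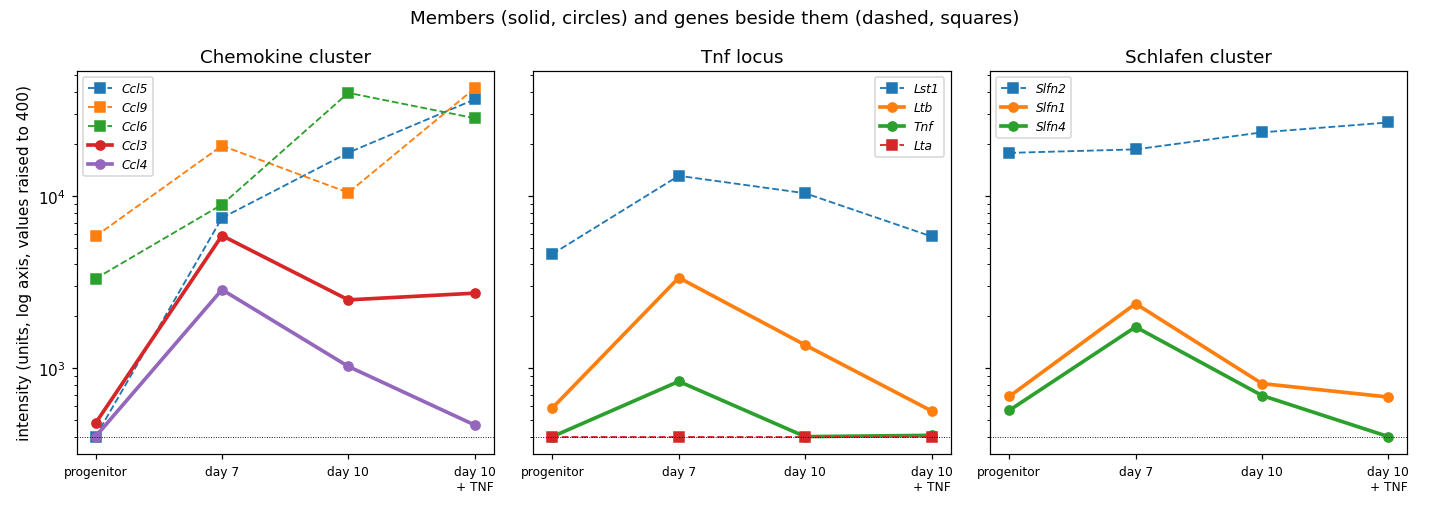
Intensity (units, log axis, values raised to 400) on the progenitor, day 7, day 10 and day 10 with TNF arrays for members (solid lines, circles) and genes beside them (dashed lines, squares) at the chemokine, Tnf and Schlafen loci, 1 array per point. Ccl3, Ccl4, Ltb, Tnf, Slfn1 and Slfn4 all turn down after day 7, while Ccl5, Ccl6 and Slfn2 do not.

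Promoter sequences are shown for these adjacent pairs because both genes of each pair met the rule. Ccl4 is not shown. The windows are the 250 bases before the annotated start, from RefSeq on GRCm38.p6, for Tnf (chr17:35202008-35202257, minus strand), Ltb (chr17:35194257-35194506, plus strand), Ccl3 (chr11:83649379-83649628, minus strand), Slfn1 (chr11:83116570-83116819, plus strand) and Slfn4 (chr11:83174936-83175185, plus strand). Capitals mark matches on either strand to the TATA box (TATAAA), the CCAAT box, an NF-kB site (GGG and TTTCC parted by any 2 bases), an AP-1 site (TGANTCA) and a GAS element bound by STAT factors (TTCNNNGAA).
Tnf: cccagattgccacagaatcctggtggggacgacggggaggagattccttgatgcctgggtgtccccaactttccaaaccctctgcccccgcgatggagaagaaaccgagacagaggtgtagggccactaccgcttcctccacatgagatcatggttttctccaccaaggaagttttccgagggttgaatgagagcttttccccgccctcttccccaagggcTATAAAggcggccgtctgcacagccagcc
Ltb: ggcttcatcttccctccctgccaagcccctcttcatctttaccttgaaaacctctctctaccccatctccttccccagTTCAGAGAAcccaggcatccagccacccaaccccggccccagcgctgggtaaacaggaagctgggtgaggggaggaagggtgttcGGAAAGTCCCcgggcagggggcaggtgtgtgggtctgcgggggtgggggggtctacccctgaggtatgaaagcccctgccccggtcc
Ccl3: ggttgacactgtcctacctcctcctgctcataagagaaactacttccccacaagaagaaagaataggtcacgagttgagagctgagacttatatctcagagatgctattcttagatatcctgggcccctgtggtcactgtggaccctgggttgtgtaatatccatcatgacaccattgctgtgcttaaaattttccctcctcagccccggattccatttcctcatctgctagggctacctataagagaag
Slfn1: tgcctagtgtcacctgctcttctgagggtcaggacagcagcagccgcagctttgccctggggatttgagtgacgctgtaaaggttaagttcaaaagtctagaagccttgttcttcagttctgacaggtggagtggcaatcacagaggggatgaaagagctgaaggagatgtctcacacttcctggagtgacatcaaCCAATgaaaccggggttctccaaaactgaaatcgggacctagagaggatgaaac
Slfn4: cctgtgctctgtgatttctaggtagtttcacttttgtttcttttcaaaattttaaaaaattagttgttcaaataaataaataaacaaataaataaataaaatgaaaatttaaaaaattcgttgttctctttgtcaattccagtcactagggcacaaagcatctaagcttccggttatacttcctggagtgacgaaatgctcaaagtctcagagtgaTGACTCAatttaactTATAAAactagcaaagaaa
The TATA box of Tnf spans bases 29 to 24 before the start and that of Slfn4 bases 19 to 14. Ltb holds a match to the NF-kB letters at bases 87 to 78 and to GAS at 172 to 164, Slfn1 a CCAAT box at 54 to 50 and Slfn4 an AP-1 match at 34 to 28. In the Ccl3 window none of these letters occurs. Tnf and Ltb shared none of these marked motifs, and neither did Slfn1 and Slfn4. The letters TTGNNNAA, for C/EBP factors, are not marked here. In the longer windows counted below they were present for both Slfn1 and Slfn4, and for Tnf but not Ltb.

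Over the full 300-base windows, which add 50 bases after the start, 21 members had a promoter entry, with 23 windows. TATAAA was present in 3 of these windows (13%), against 10% of 8363 windows of all measured genes. The NF-kB site was present in 1 (4.35%, against 1.85%), TGANTCA in 2 (8.7%, against 6.22%) and TTCNNNGAA in 2 (8.7%, against 7.01%). CCAAT was present in 7 (30.4%, against 37.1%), and the GC box GGGCGG in 14 (60.9%, against 56.6%). TTGNNNAA, for C/EBP factors, was present in 10 (43.5%, against 29.3%). The cyclic AMP element TGACGTCA was in the windows of Ell2 and Wdr82, 2 of 23 (8.7%, against 2.62%). With so few windows these shares are descriptions of the members and carry no test.

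Other surface and matrix genes were 3 in number. Adam9, a membrane metalloprotease, was at 630 units in progenitors, 1792 at day 7, 735 at day 10 and 950 with TNF, or 2.85-fold and 2.44-fold higher at day 7 than in progenitors and at day 10. Its relatives differed in course: Adam8 was at 3023, 5126, 7026 and 12031 units, and Adam10 at 2622, 2298, 1234 and 1496. Gp9 encodes a subunit of the platelet receptor for von Willebrand factor. It was at 391, 986, 88 and -241 units, while Gp1bb and Gp5, subunits of the same receptor, and the platelet chemokine gene Pf4 lay under 400 units on all 4 arrays. Bgn, the matrix proteoglycan biglycan, was at 206, 911, 286 and 988 units by a probe set marked as shared within a gene family. A second, plain Bgn probe set was at 352, 421, 477 and 306 units and showed no peak. Of 8 stromal markers, 1, 1, 0 and 0 lay above 400 units in progenitors, at day 7, at day 10 and with TNF.

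Adaptor genes formed another group. Sh2d1b1 encodes EAT-2, which couples receptors of the SLAM family to signalling. It was at 1315 units in progenitors, 3041 at day 7, 1364 at day 10 and 1557 with TNF, returning to its starting level. Of the SLAM family receptors measured, Ly9 was also highest at day 7, at -45, 2199, 1223 and 356 units, whereas Cd244a was at 292, 943, 966 and 750. Unlike Sh2d1b1, Ly9 did not return to its starting level at day 10, and it was 3.06-fold lower with TNF than at day 10. Sh3bp2, an adaptor of immune receptor and kinase signalling, was at 1072, 2684, 965 and 629 units. Sh3bgrl2, a small protein related to glutaredoxins, was at 27, 914, 410 and 298.

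Nuclear proteins were encoded by 4 members. Atf5 is a basic leucine zipper factor of the ATF family and was at 503 units in progenitors, 4283 at day 7, 2091 at day 10 and 911 with TNF. Its 8.52-fold ratio to progenitors came next after Ccl3 among members with a progenitor level above the floor, and its 2.05-fold ratio to day 10 lay close to the threshold. Related stress-response factors did not peak at day 7: Atf4 was at 11994, 11926, 20392 and 16168 units and Ddit3 at 349, 1404, 5725 and 4199. Ell2, an elongation factor of RNA polymerase II, was at 487, 1566, 542 and 1317 units by a probe set whose name marks it as less specific. Its 2 other probe sets lay under 400 units on all 4 arrays, and with the mean of all its probe sets both log2 ratios of day 7 were 0.79, so that Ell2 did not meet the rule. Its relative Ell was nearly level at 1606, 1818, 1492 and 1271. Ncoa1, a coactivator of nuclear receptors, was at 322, 1072, 463 and 328 units, and Wdr82, a subunit of a histone H3 lysine methyltransferase complex, at 362, 1100, 310 and 330. The last 2 had low values on the array with TNF as well as at day 10.

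Transport and metabolism were represented by 5 members. Slc6a6 encodes the taurine transporter and was at 5358 units in progenitors, 16364 at day 7, 7366 at day 10 and 3630 with TNF. A second Slc6a6 probe set was 3.14-fold higher at day 7 than in progenitors but only 1.14-fold higher than at day 10, at 1089, 3419, 3011 and 2411 units. Both probe sets thus shared the upward side of the peak and differed on the downward side. Arg2, the mitochondrial arginase, was at 441, 2742, 1299 and 1099 units, while Arg1, the cytosolic enzyme, and Nos2, which competes for arginine, lay under 400 units on all 4 arrays. Hgsnat, a lysosomal enzyme that helps break down heparan sulfate, was at 1487, 3195, 1398 and 1270 units. Cyb5r3, which passes electrons to cytochrome b5, was at 596, 2463, 1069 and 2608. Pam16, a part of the mitochondrial import motor, was at 390, 972, -45 and 366.

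Cytoskeleton and autophagy were represented by single genes rather than by whole complexes. Arpc5 encodes a subunit of the Arp2/3 complex, which branches actin filaments, and was at 464 units in progenitors, 1299 at day 7, 509 at day 10 and 374 with TNF. Of other parts of the complex, 3 were nearly level: Arpc2 was at 21435, 19089, 24403 and 27342 units, Arpc1a at 3295, 2888, 3169 and 3234, and Actr3 at 16700, 14277, 18893 and 18714. Arpc4 lay under 400 units on all 4 arrays. Arpc5l, a relative of Arpc5 outside the picked partners, went the other way on the first step. It was at 1860, 372, 386 and 1029 units. Septin10, which encodes a filament-forming GTP-binding protein, was at 1107, 4346, 2132 and 3523 units, whereas Septin9 was at 7716, 13613, 18907 and 10008. Atg4b, the protease that processes the Atg8 proteins of autophagosomes, was at 554, 1718, 328 and 1638 units. Its day 7 level was at least 4.29-fold over day 10. Its substrate gene Gabarap was at 12732, 18546, 32546 and 28467 units, higher again at day 10.

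Gdap10, which RefSeq annotates as a long noncoding RNA, was at 651 units in progenitors, 3126 at day 7, 1314 at day 10 and 2842 with TNF. Ggnbp2, the gene of a gametogenetin-binding protein, was at 176, 813, 184 and 449 units. Receptors, relatives and complex partners of the members were picked once the members were known, with the members themselves left out. Of 45 measured, 29 exceeded 400 units somewhere.

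The level with TNF divided the members. On that array 18 of 27 members (66.7%) were at most 0.5 times their day 7 value, against 10.1% of 4507 genes. Since the members were picked for a day 7 value high against progenitors and against day 10, part of this difference is set by the choice, and it is given as a description. The 18 were Slc6a6, Ccl3, Atf5, Ltb, Hgsnat, Ccl4, Arg2, Sh3bp2, Slfn1, Slfn4, Ifna9, Arpc5, Wdr82, Ncoa1, Gp9, Pam16, Sh3bgrl2 and Tnf. They hold all the cytokine, chemokine and Schlafen members, and they were low on both day 10 arrays. The other 9, Septin10, Gdap10, Sh2d1b1, Cyb5r3, Adam9, Atg4b, Ell2, Bgn and Ggnbp2, kept 51.2% to 108% of their day 7 level with TNF. Of these, Sh2d1b1, Adam9 and Ggnbp2 were still 1.95-fold, 1.88-fold and 1.81-fold lower with TNF than at day 7, close to the 2-fold line. The remaining 6 had at least 81.1% of their day 7 level with TNF.

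Set against day 10, where the members are low by choice, 5 of 23 were at least 2 times higher with TNF (21.7%, against 5.05% of 4357 genes). Atg4b was at least 4.09-fold higher, at 1638 units with TNF, against 328 at day 10. Bgn was at least 2.47-fold higher, Cyb5r3 2.44-fold, Ell2 2.43-fold and Gdap10 2.16-fold. Cyb5r3, at 2608 units with TNF, and Bgn, at 988, were the only members above their day 7 level. The values of Bgn and Ell2 rest on probe sets marked as shared or less specific. By its plain probe set Bgn was at 421 units at day 7, 477 at day 10 and 306 with TNF. In the other direction 4 of 23 were at most 0.5 times day 10 (17.4%, against 4.82%). Ltb was 2.41-fold lower, at 564 units with TNF, against 1361 at day 10. Atf5 was 2.30-fold lower, Ccl4 2.19-fold and Slc6a6 2.03-fold. These 4 were thus lower with TNF than at day 10 without it, and lower at day 10 than at day 7. With TNF, Ltb, Ccl4 and Slc6a6 were at 16.8%, 16.4% and 22.2% of their day 7 level. For Slc6a6 this rests on the brighter probe set. The second was at 3419 units at day 7, 3011 at day 10 and 2411 with TNF, a log2 ratio of -0.5 for TNF over day 7. Over all 27 members 19 (70.4%) lay above 400 units with TNF, against 95.7% of the 3125 genes with 800 units or more at day 7, a level that the rule requires of every member. At day 10 without TNF the number of members above 400 units was also 19. The 3125 genes were not picked for a low day 10 value as the members were, so the gap is not a measure of TNF. In the same 27 genes, 4 of them under the floor on both arrays and so at 0, the median log2 ratio of TNF over day 10 was 0, as against -0.01 for all genes above the floor.

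**Figure D4:**
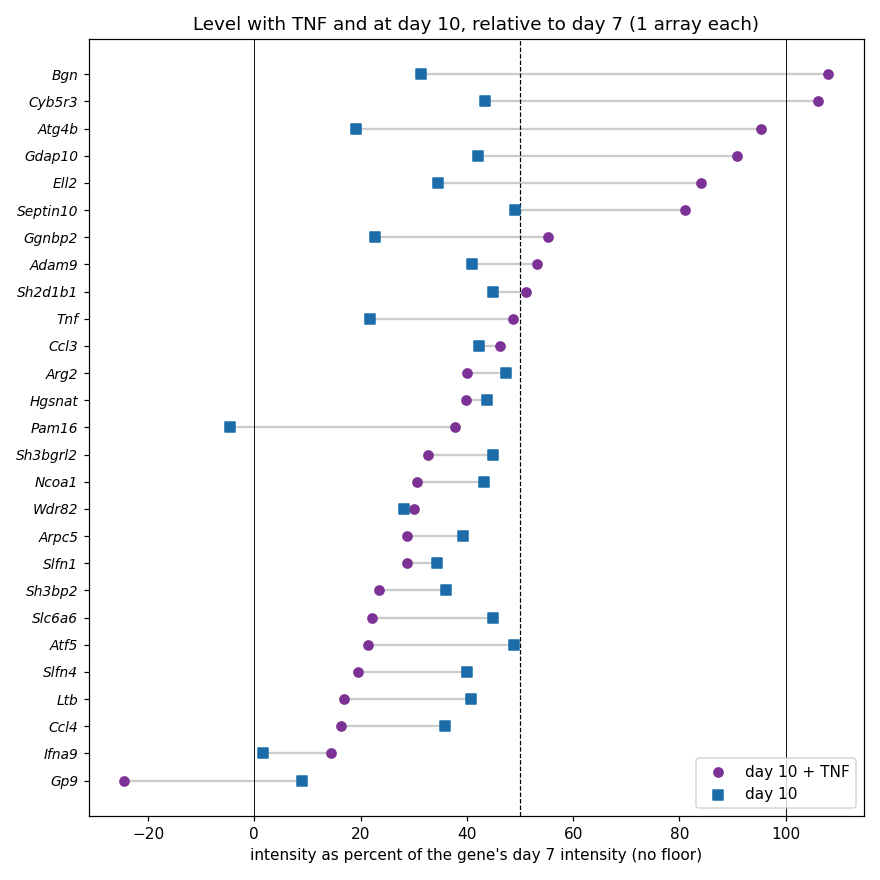
Intensity with TNF (circles) and at day 10 (squares) as a percentage of each member's day 7 intensity, without a floor, 1 array each; the dashed line marks 50% and the solid line 100%. Bgn, Cyb5r3, Atg4b, Gdap10, Ell2 and Septin10 lie between 81.1% and 108% with TNF, and Slfn4, Ltb, Ccl4, Ifna9 and Gp9 lie at 19.5% or lower.

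Lists of related genes show where the members fall among known programmes. Of all genes above 400 units on the 3 arrays of the rule, 0.581% of 4651 were members. Of the 19 lists, 4 held a member. Of 38 measured cytokine genes, most of them not above the floor, Ltb and Tnf were members. At day 7, 5 of the list's 9 genes above the floor exceeded their progenitor value 2-fold and 0 were lower (10.7% and 9.86% of all genes). The median log2 ratio of the 9 was 1.06, against -0.06 over all genes. Of 11 compared with day 10, 2 were higher and 1 was lower at day 7 (6.26% and 6.01% of all genes). The 2 higher are Ltb and Tnf themselves, placed there by the rule, and both are also among the 5. Il1rn, which encodes the interleukin-1 receptor antagonist, was at 1067, 5976, 3936 and 4055 units, with day 7 at 1.52-fold its day 10 level. Il18 was at 83, 3458, 3190 and 310 units, and thus stayed high to day 10 and was low with TNF. Of 43 measured chemokine and receptor genes, 8 of 16 were higher than in progenitors at day 7 and 0 lower. Ccl3 and Ccl4 are among these 8 by the rule. Against day 10, however, 2 of 18 were higher at day 7, which are Ccl3 and Ccl4 themselves, and 4 lower. Ccl22 was at 402, 9719, 14764 and 43872 units.

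None of 43 measured immediate-early and NF-kB genes was a member. Since only 0.581% of genes above the floor were members, this says little about so short a list. At day 7, 12 of 28 were higher than in progenitors and 0 lower (10.7% and 9.86% of all genes). Against day 10, 1 of 29 was higher at day 7 and 3 lower (6.26% and 6.01% of all genes). The same shares and the same limit apply to the lists that follow. Of the macrophage list, 15 of 32 exceeded their progenitor value at day 7 and 2 were lower, with 0 members among 44 measured genes. The dendritic cell list had 22 of 29 above and 1 below progenitors at day 7, while 0 of 31 exceeded day 10 and 12 were lower. Cell cycle genes went the opposite way to the members on the first step, with 1 of 47 higher and 29 lower at day 7 than in progenitors, and the same way on the second, where day 7 exceeded day 10 by 2-fold or more in 23 of 45 and fell short of it by as much in 1. The 2 remaining lists with a member held Gp9 and Bgn, each the only one.

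No replicate array exists, so the error can be judged only from different probe sets of the same gene on the same RNA. Where 2 probe sets of a gene both lay above 400 units, their log2 ratios differed with an SD of 0.62 for day 7 over progenitor (392 genes) and 0.72 for day 7 over day 10 (382 genes). The members' median log2 ratios were 1.61 and 1.25, so a typical member's difference between day 7 and day 10 was under 2 such SDs. Each SD holds the error of both probe sets compared and none of the spread between cultures. Further probe sets existed for 4 members, 5 in all, of which 2, those of Slc6a6 and Bgn described above, lay above 400 units on at least 1 array and 0 met the rule. Of 651 further probe sets of all genes above the floor, 2 met it (0.307%). The other members rest on 1 named probe set each. Among probe sets with no single gene symbol 6 of 708 met the rule (0.847%).

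Many members lay near the threshold. Just inside it were Ggnbp2, with 2.03 as the smaller of its 2 folds, Septin10 with 2.04, Atf5 with 2.05, Tnf with 2.09 and Arg2 with 2.11. Just outside were Slc11a1 (1.98), at 287 units in progenitors, 793 at day 7, 324 at day 10 and 236 with TNF. Hba-ps3 and Acot1 lay there too, each also at 1.98. They were followed by Gpx1, the glutathione peroxidase gene, at 1521, 2998, 933 and 1105 units, and Asprv1 at 1210, 2384, 856 and 120 (1.97 each). In all, 6 genes had a smaller fold of 2 to under 2.2, and 28 one of 1.8 to under 2. Scaling each array to a common 75th percentile kept 23 of the 27, without Arg2, Atf5, Ggnbp2 and Septin10, and quantile normalization kept 22, without these 4 and Tnf. Under both scalings and floors of 100, 200 and 800 units, 13 members met the rule throughout: Adam9, Atg4b, Ccl3, Ccl4, Cyb5r3, Gdap10, Hgsnat, Ltb, Sh2d1b1, Sh3bp2, Slc6a6, Slfn1 and Slfn4.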

How the data were processed

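Total RNA of 4 groups was measured with 1 Affymetrix mouse array each. Some probe sets of this array version may be unreliable, which could not be checked here. A value under 400 units therefore need not mean that a gene was not expressed. The values deposited by the authors are linear intensities of 12654 probe sets; no header or label names the software, background method or scaling. The deposited intensities show that 22.8% to 24.3% of values lie below 0 and that the mean of the central 96% is 998.78 to 999.01 units on every array. Arrays limit precision by their number, 1 per group, so no test was made.

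Names came from GEO's platform annotation, in which 10298 probe sets have 1 symbol, 363 several and 1993 none, and symbols were updated through the Entrez number. Leaving out 66 controls, each of 8220 genes was read by its probe set of highest 4-array mean. Deposited values were raised to 400 units and compared by a 2-fold rule; a fold against a value under 400 units is a lower bound ("at least"). Negative levels are printed as they stand. List counts use genes that exceed 400 units on either array compared. The 19 lists hold 806 genes, 635 of them measured. All members are named with their values. Other genes named are cell type markers, the brightest of the lists, the genes nearest the threshold, partners, chromosomal neighbours and Arpc5l. The members and lists were chosen with earlier results of these data known. The peak rule was run on simulated data with planted peaks. These were larger than most members' folds over day 10 and were placed only in bright genes. That run therefore does not bear on members near the threshold or near the floor. Python 3.11.15 and pandas 2.3.3 were used. Alternatives were 2 other scalings, 3 other floors, a 3-fold rule and 3 other choices of probe set.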

Additional observations from a re-analysis of the deposited data

Results flagged for a closer look

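Data outside the named genes also held the pattern. Of 708 probe sets above 400 units with no single gene symbol, 6 met the same rule (0.847%, against 0.581% of named genes). The one with the largest day 7 value was at 448 units in progenitors, 6975 at day 7, 2862 at day 10 and 2390 with TNF. These 6 have no single gene symbol in the annotation used here and were left out of the member counts.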

How the results depend on the processing

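The number of genes that met the rule depended on the floor and on the fold asked for: 27 at 400 units became 102 at a floor of 100, 48 at 200 and 16 at 800, since a low floor lets in dim genes and a high one leaves few genes to call. A 3-fold rule left 2, and the second highest probe set of genes with several gave 2, neither of them a member. The other scalings gave 23 and 28 genes, the mean of all probe sets 24, and plain probe sets only 24. For the fixed members, the count at least 2 times higher with TNF than at day 10 was 5 in the values as reported. It was 9 at a floor of 100, 3 at 800, 3 with the mean of all probe sets, 0 with the second highest and 3 with plain probe sets only. When at least 3 times higher was asked for instead, the count was 1. The count at most 0.5 times day 7 with TNF, 18 as reported, was 10 at a floor of 800 and 0 with the second highest probe set. That probe set exists for 4 members, and by it 1 member lay above the floor with TNF. When at least 3-fold lower with TNF than at day 7 was asked for instead, the count was 9. Bgn reversed its sign for day 7 over day 10, to a log2 ratio of -0.18, with the second highest probe set and with plain probe sets only, which are the same probe set; the cause was not tested. Among single log2 ratios, 496 moved by less than the probe set SD and 69 by more. No paired analysis was possible because each group has 1 array. Depth is not defined for arrays, and dim values near or below 0 limit the 7 members whose progenitor and day 10 levels lie under 400 units.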
